A study of Mus musculus with 8 samples.

Results

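Glucocorticoid receptor (GR) binding was described around 38 mouse genes of the complement and coagulation systems. The genes were taken as 1 group of liver-made plasma proteins, and sites were assigned to them by distance alone. Peak regions of the 6 GR libraries that overlapped were merged into 51431 sites, and a site belonged to the group when its centre lay within 50 kb of the annotated start of a member gene. This gave 339 sites, each counted once. The 38 members are a subset of 21938 protein-coding genes in the annotation.

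The data are GR ChIP-seq (sequencing of DNA recovered with the receptor by immunoprecipitation) of whole liver of male C57BL/6J mice. Control mice (ctrl.) ate only during the night, calorically restricted mice (cal. res.) received less food, and the third group (CORT) ate only during the night and also received corticosterone, the main glucocorticoid of mice, each day by intraperitoneal injection. Each group had 2 libraries, prepared as biological replicates, and all mice ate regular chow. The labels give neither the degree of restriction nor a vehicle injection for ctrl. The list of FOXO1 peaks came from 2 merged cal. res. libraries, so FOXO1 overlap was measured against restricted livers only and carries no replicate spread. Because whole liver was used, a change in the make-up of the tissue and a change in binding per cell cannot be told apart. GR sites held in all 3 groups lay near each of 5 hepatocyte genes (Alb, Ttr, Apoa1, Tat and Hnf4a, with 1 to 10 such sites each), and near 3 of 6 genes of other liver cells (Ptprc, Pecam1 and Stab2, with 1 to 2 each).

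Complement is a cascade of plasma proteins that tags and lyses microbes. Recognition molecules and their proteases cleave C4 and C2, the resulting enzyme cleaves C3, and the terminal components assemble a pore in the target membrane. Coagulation is a related cascade of serine proteases that ends with thrombin cutting fibrinogen into fibrin, while the protein C pathway restrains it and plasmin dissolves the clot. Hepatocytes make most of these proteins, several of them rise in the acute-phase response, and glucocorticoids acting through GR are among the hormones known to act on acute-phase genes together with STAT3 and C/EBP factors. FOXO1 is a forkhead factor that is active in the liver when insulin is low.

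The DNA under the GR summit is printed here for 7 sites on which the results turn. These are the strongest site of 4 role classes (fibrinogen, C3, C4bp and C8a), 2 others with strong FOXO1 regions (near Hrg and Proz), and a second C8a site. The second C8a site was held in cal. res. and CORT with no ctrl. peak. The fibrinogen site and those near Hrg and Proz are among the 5 sites with the strongest FOXO1 regions. The Hrg start and the Plg intron, also among those 5, are not printed. All are 200 bp windows of the plus strand of GRCm38/mm10, and capitals mark matches to any of 7 consensus motifs on either strand. The Fgg window, chr3:83003158-83003357, lies in an intron of the noncoding gene Gm30097 upstream of Fgg. The C3 window, chr17:57228158-57228357, lies just upstream of the start of C3. The C4bp window, chr1:130678710-130678909, lies in an intron of Gm29427. Of the C8a windows, chr4:104838413-104838612 is intronic and chr4:104891740-104891939 lies upstream of the gene. The Hrg window, chr16:22922523-22922722, is in the promoter of its neighbour Fetub, and the Proz window, chr8:13057465-13057664, lies between genes.
Fgg: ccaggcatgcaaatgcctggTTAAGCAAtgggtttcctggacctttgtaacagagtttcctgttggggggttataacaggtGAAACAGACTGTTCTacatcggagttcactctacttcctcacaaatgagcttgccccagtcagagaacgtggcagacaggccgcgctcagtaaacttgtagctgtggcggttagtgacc
C3: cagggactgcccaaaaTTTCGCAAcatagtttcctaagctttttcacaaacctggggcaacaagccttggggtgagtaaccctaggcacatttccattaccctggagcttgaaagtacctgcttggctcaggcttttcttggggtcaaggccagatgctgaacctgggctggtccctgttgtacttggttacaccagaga
C4bp: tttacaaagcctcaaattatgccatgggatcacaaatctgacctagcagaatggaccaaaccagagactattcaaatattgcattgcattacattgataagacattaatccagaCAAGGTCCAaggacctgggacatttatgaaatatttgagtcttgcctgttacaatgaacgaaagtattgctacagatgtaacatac
C8a intron: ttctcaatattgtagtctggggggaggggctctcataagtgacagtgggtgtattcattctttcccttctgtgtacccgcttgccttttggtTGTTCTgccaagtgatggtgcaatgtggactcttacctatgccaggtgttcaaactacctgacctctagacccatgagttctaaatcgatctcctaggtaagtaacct
C8a upstream: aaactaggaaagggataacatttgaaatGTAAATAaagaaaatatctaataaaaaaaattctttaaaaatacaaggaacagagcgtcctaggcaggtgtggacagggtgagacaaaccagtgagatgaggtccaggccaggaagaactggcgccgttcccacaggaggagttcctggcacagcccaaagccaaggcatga
Hrg and Fetub: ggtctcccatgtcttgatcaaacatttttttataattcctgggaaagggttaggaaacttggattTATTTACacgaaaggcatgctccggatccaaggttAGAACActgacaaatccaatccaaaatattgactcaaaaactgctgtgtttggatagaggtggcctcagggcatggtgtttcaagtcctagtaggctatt
Proz: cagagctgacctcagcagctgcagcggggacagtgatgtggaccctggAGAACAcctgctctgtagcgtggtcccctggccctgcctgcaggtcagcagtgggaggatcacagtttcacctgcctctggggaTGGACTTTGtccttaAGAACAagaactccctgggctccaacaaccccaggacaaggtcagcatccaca
The Fgg window holds a match to the palindromic GR element, with 2 mismatches, the most allowed, and a C/EBP match. The C3 window holds only a C/EBP match (TTGCNNAA), and the C4bp window only an HNF4 match (CAAAGTCCA, at most 1 mismatch). The intronic C8a window holds a GR hexamer (AGAACA), the upstream C8a window a FOX match (TGTTTAC or TATTTAC), the window near Hrg both, and the Proz window GR hexamers and an HNF4 match.

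The libraries differed in how many peaks they held, and this bears on every count below. Rows that shared an interval were reduced to 1 region. The ctrl. lists held 36234 and 12458 regions, those of cal. res. 22707 and 18747, and those of CORT 29473 and 39136. Ctrl. replicate 2 had the fewest. Fold enrichment was ranked within each list, as a percentile from 0 (weakest) to 100 (strongest), and read totals were not analysed here. These percentiles also followed list length. Over the 8097 sites with a peak in all 6 libraries, the median percentile rose with the number of regions. It was 61.3 in ctrl. replicate 2, the shortest list, and 87.1 in CORT replicate 2, the longest. The library names follow a pair of styles. Ctrl. replicate 1 and both CORT libraries share one style, and ctrl. replicate 2 and both cal. res. libraries the other, so that name style and group cannot be told apart between cal. res. and CORT.

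The member genes were surrounded by more GR sites than most genes. A member had a median of 11 sites within 50 kb of its start (range 4 to 18), against a median of 3 over protein-coding genes. At least 1 site held in all 3 groups, that is with a peak in all 6 libraries, lay near 33 of the 38 members (86.8%), against 37.9% of protein-coding genes. For a list of 36 further complement and coagulation genes, among them C1q subunits, clotting inhibitors of the serpin family and endothelial factors, 15 had such a site. All 18 acute-phase genes compared (among them Saa1, Hp, Orm1 and Lbp) had one. The 5 members without were C4b, C9, F5, F13b and Pros1, and ctrl. held no site near any of them.

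Members took 0.679% and 0.979% of the regions of the ctrl. libraries and 0.735% and 0.784% in cal. res., against 0.801% and 0.756% in CORT. The exact 95% intervals overlapped between groups, from 0.597% to 0.769% in ctrl. replicate 1 and from 0.814% to 1.17% in ctrl. replicate 2, so the ctrl. libraries differed from each other more than the groups did. Within the lists, member regions had median percentiles of 49.8 and 53.4 in ctrl. and 61.6 and 58.9 in cal. res., against 56.5 and 60.1 in CORT. Both ctrl. libraries lay below the 4 others. Of the 339 summits, 151 were intronic, 89 lay within 1 kb of an annotated transcript start, and 84 were intergenic. A member had the nearest protein-coding start for 200 of the sites (59.0%), and 69 sites were near more than 1 member, since several members lie side by side.

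The groups held different numbers of these sites. A site counts as held by a group only with a peak in each of the 2 libraries. Of the 339 member sites, 86 were held by ctrl. (25.4%, against 21.4% of all GR sites). Cal. res. held 107 (31.6%, against 27.9%) and CORT 175 (51.6%, against 43.7%), so all GR sites showed the same order of groups. All 3 groups held 72 sites (21.2%), against 15.7% of all GR sites. Sites held in CORT and not in ctrl. numbered 92 (27.1%), with 24.3% over all sites, and those held in cal. res. and not in ctrl. 33 (9.73%), with 11.5% over all sites. These shares lay near the background. In the other direction, 12 sites were held in ctrl. and not in cal. res. (3.54%, against 4.99% of all sites) and 3 in ctrl. and not in CORT (0.885%, against 2.05%).

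Most of the sites that ctrl. did not hold were present in its longer list. Among the 33 cal. res. sites, ctrl. replicate 1 had a peak at 31 and ctrl. replicate 2 at none. Among the 92 CORT sites, the numbers were 66 and 8. When ctrl. was represented by replicate 1 alone, 2 sites were held in cal. res. and not in ctrl., and 26 in CORT and not in ctrl. (7.69%, against 4.63% of all sites). No peak in either ctrl. library was found at 2 sites held in cal. res. (0.590%, against 0.842% of all sites) and at 18 held in CORT (5.31%, against 4.28%), both near the background. With CORT represented by replicate 2 alone, the CORT count was 199 (62.6%, against 56.7% of all sites), and with cal. res. represented by replicate 1 alone the cal. res. count was 57 (16.9%, against 21.7%). The bar chart of sites by gene gives the number held at each member.

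**Figure D1:**
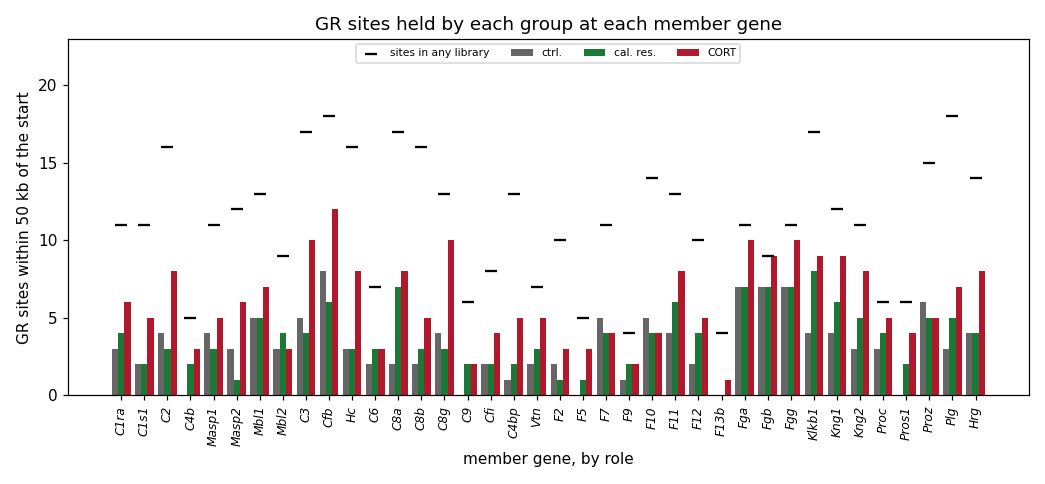
GR sites within 50 kb of the start of each of the 38 member genes, ordered by role. Bars give the number of sites held in ctrl. (grey), cal. res. (green) and CORT (red), dashes the number with a peak in any library. C4b, C9, F5, F13b and Pros1 have no grey bar, and the red bar is the tallest at most genes.

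The initiating proteases and lectins comprised 8 genes (C1ra, C1s1, C2, C4b, Masp1, Masp2, Mbl1 and Mbl2) with 73 sites. Ctrl. held 20 of them, cal. res. 21 and CORT 34, and 15 overlapped FOXO1. Of all GR sites, 21.4%, 27.9% and 43.7% were held by these groups in the same order, and 13.9% overlapped FOXO1. The counts of each role class stand beside these shares and were not tested. The strongest site was chr14:41103727-41107107, near the mannose-binding lectin gene Mbl1 but at the promoter of Mat1a, the liver methionine adenosyltransferase. It ranked at percentiles of 98.2 and 96.1 in ctrl. and 99.0 and 99.0 in cal. res., against 99.0 and 99.5 in CORT, so it was near the top of every list. Masp2 encodes the protease that lectins use to cleave C4 and C2. Its start site, chr4:148601573-148604569, had percentiles of 62.7 and 16.6 in ctrl. and 37.2 and 19.3 in cal. res., against 78.6 and 81.1 in CORT. Both CORT libraries lay above all others there, and ctrl. and cal. res. overlapped. At C4b, the gene of the C4 protein, the start site was at 67.3 in ctrl. replicate 1, absent in ctrl. replicate 2, at 62.6 and 61.6 in cal. res., and at 89.8 and 95.0 in CORT. C4b has a near-identical neighbour, C4a, and the authors removed reads that mapped to several places, so peak counts at this pair are uncertain.

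The amplification genes, C3 and Cfb, had 29 sites. C3 is the component on which the complement routes converge, and Cfb encodes factor B, the protease of the alternative pathway. Ctrl. held 11 of their sites, cal. res. 8 and CORT 19, against 21.4%, 27.9% and 43.7% of all GR sites. No site was held in cal. res. and not in ctrl., against 11.5% of all GR sites. The C3 start site, chr17:57221978-57228855, had percentiles of 99.3 and 91.6 in ctrl. and 96.8 and 92.8 in cal. res., against 99.3 and 99.6 in CORT, and it overlapped a FOXO1 region with a percentile of 72.6 in its own list. This is the site whose summit sequence with the C/EBP match is printed above. The Cfb start site was at 89.0 and 70.3 in ctrl. and 83.0 and 87.2 in cal. res., against 86.0 and 97.0 in CORT, where the groups overlapped. A site within an intron of Stk19, chr17:34830701-34831467, near Cfb, was at 68.4 and 9.11 in ctrl. and 31.3 and 66.8 in cal. res., against 71.1 and 90.9 in CORT. CORT and ctrl. did not overlap, but the ctrl. libraries were further apart than ctrl. replicate 1 and CORT.

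The terminal pathway (Hc, C6, C8a, C8b, C8g and C9), whose products form the membrane pore, had 75 sites. Ctrl. held 13, cal. res. 21 and CORT 36, and 10 overlapped FOXO1 (against 21.4%, 27.9%, 43.7% and 13.9% of all GR sites). In this class 11 of the 75 sites were held in cal. res. and not in ctrl., against 11.5% of all GR sites. C8a alone accounted for 5 of these 11. Its strongest site, chr4:104837526-104840650 in an intron, had percentiles of 93.7 and 84.4 in ctrl. and 96.5 and 92.3 in cal. res., against 95.0 and 96.2 in CORT, which overlapped between ctrl. and cal. res. The upstream C8a site, chr4:104890910-104892079, had no peak in either ctrl. library. It had percentiles of 87.9 and 70.1 in cal. res. against 62.6 and 86.9 in CORT, and it was the only member site without a ctrl. peak that both treated groups held. It did not overlap FOXO1, although its window holds a FOX match. At C6, an intergenic site, chr15:4678411-4679029, was the only one where both CORT libraries lay below both ctrl. libraries, with percentiles of 94.6 and 92.0 in ctrl. and 81.4 and 89.4 in cal. res., against 85.5 and 86.8 in CORT. Both cal. res. libraries lay below both ctrl. libraries there as well.

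C8b differed between the CORT libraries. Around this gene CORT replicate 1 had 15 of the 16 sites, CORT replicate 2 had 6, and the other libraries had 2 to 4. The start site of C8b was at a percentile of 99.5 in CORT replicate 1, with a fold enrichment of 49.2, and at 64.4 in CORT replicate 2. It was at 46.7 and 70.2 in ctrl., and at 61.3 in cal. res. replicate 1 with no peak in replicate 2. The high value thus belonged to 1 library and not to a group. Its cause was not tested.

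The complement regulators (Cfi, C4bp and Vtn) had 28 sites. Ctrl. held 5 of them, cal. res. 7 and CORT 14, against 21.4%, 27.9% and 43.7% of all GR sites. Cfi and C4bp encode factor I and the binding protein that acts as its cofactor in degrading activated C4, and Vtn encodes vitronectin, which blocks pore assembly. The top site, near C4bp, chr1:130678103-130679193, was at 99.1 and 84.1 in ctrl. and 95.3 and 96.2 in cal. res., against 92.2 and 98.3 in CORT, and all groups overlapped. The Vtn start site was at 92.8 and 26.4 in ctrl. and 68.2 and 81.5 in cal. res., against 98.6 and 99.3 in CORT. Both CORT libraries lay above the rest, but the ctrl. libraries were far apart. Vtn was the one member with no FOXO1 overlap.

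The coagulation genes (F2, F5, F7, F9, F10, F11, F12, F13b, Fga, Fgb, Fgg, Klkb1, Kng1 and Kng2) had 81 sites. Ctrl. held 23 of these, cal. res. 32 and CORT 45, and 24 overlapped FOXO1 (against 21.4%, 27.9%, 43.7% and 13.9% of all GR sites). The F2 start site (prothrombin) was at 75.7 and 72.5 in ctrl. and 79.1 and 75.4 in cal. res., against 86.0 and 87.2 in CORT. The CORT libraries were above the others there, and the ctrl. and cal. res. values overlapped. F9 and F11 encode factors IX and XI of the intrinsic route. An intronic F9 site, chrX:60014388-60015083, was at 97.8 and 87.4 in ctrl. and 95.7 and 96.1 in cal. res., against 92.6 and 95.3 in CORT, and it was 1 of 2 member sites where both cal. res. libraries lay above both CORT libraries, here by less than 1 percentile point at the closest. The other was in an intron of F11, chr8:45252982-45255302, at 92.5 and 80.9 in ctrl. and at 89.8 and 87.8 in cal. res. against 61.7 and 82.8 in CORT. F12 encodes the factor that starts the contact route. A site near it at the promoter of Grk6, a receptor kinase, chr13:55444458-55445658, was at 80.6 and 83.4 in ctrl. and 38.4 and 50.9 in cal. res., against 95.1 and 97.1 in CORT, and none of the 3 groups overlapped. Another site below ctrl. in cal. res. was near Kng1 (a kininogen) at the promoter of the translation factor gene Eif4a2, chr16:23107074-23108440, with 76.6 and 67.5 in ctrl. and 25.6 and 26.8 in cal. res., against 54.7 and 82.4 in CORT. A further such site, chr8:45264326-45266089 upstream of F11, was at 86.5 and 66.7 in ctrl. and 35.6 and 53.9 in cal. res., against 16.9 and 79.8 in CORT. The Kng1 and Grk6 sites were thus low in cal. res., but neither has a member as its nearest gene.

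The anticoagulant and fibrinolytic genes (Proc, Pros1, Proz, Plg and Hrg) had 53 sites. Ctrl. held 14 of these, cal. res. 18 and CORT 27, and 12 overlapped FOXO1 (against 21.4%, 27.9%, 43.7% and 13.9% of all GR sites). Plg encodes plasminogen, the precursor of plasmin, and its start site was at 96.0 and 85.3 in ctrl. and 88.5 and 84.4 in cal. res., against 96.2 and 98.3 in CORT. Proc, the gene of the anticoagulant protease protein C, had a start site at 90.9 in ctrl. replicate 1, at 92.2 and 82.7 in cal. res. and at 84.4 and 92.1 in CORT, with no peak in ctrl. replicate 2. The ctrl. replicate 1 value lay inside the range of both treated groups. The start site of Proz, the gene of protein Z, chr8:13060303-13061878, was at 79.4 and 42.5 in ctrl. and 80.2 and 83.5 in cal. res., against 77.8 and 94.8 in CORT. Cal. res. was above ctrl. there, by less than 1 percentile point for ctrl. replicate 1 against cal. res. replicate 1.

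A GR site lay within 1 kb of a transcript start at 36 of the 38 members, and Masp1 and Fgb had none by summit. Taking the strongest such site of each gene, ctrl. held 20 of 36, cal. res. 25 and CORT 32, and all groups held 17. The same choice was not made for the starts of other genes. These counts and the FOXO1 overlap of start sites therefore have no background share and describe the members only. The start sites of C4b, C8a, C9, F9, F11, Proc and Pros1 were held in cal. res. and CORT and not in ctrl., and each had a peak in ctrl. replicate 1. The start site of Klkb1 (plasma kallikrein) was the one held in cal. res. only, but it ranked low there, at 27.8 and 4.12. It was higher in ctrl. replicate 1 (58.7) and CORT replicate 2 (32.0), and had no peak in the other library of either group. The start sites of Hc, C8b and C8g were held in ctrl. and CORT and not in cal. res. The plot of start sites by library gives the value of each.

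**Figure D2:**
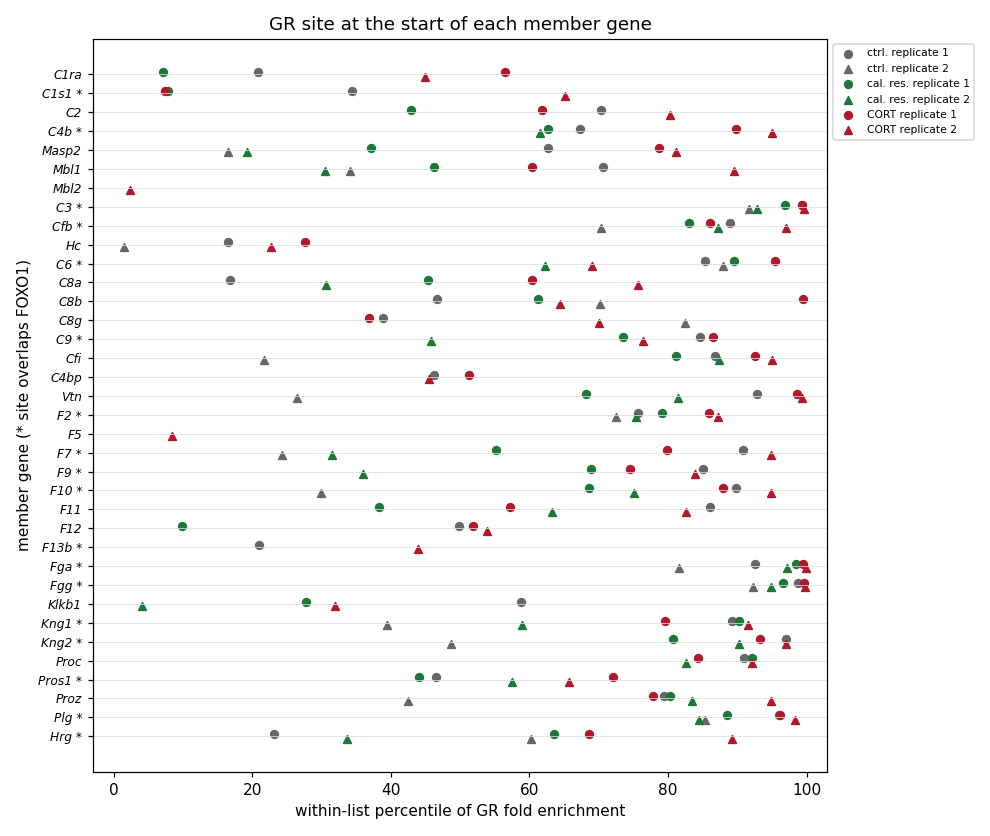
Within-list percentile of GR fold enrichment (0 to 100) at the strongest start site of 36 member genes, with circles for replicate 1 and triangles for replicate 2 of ctrl. (grey), cal. res. (green) and CORT (red). A missing symbol means no peak in that library. Stars mark the 18 genes whose site overlapped FOXO1. C3, Fga and Fgg lie above 80 in every library, and Masp2 and F2 are examples where both CORT symbols lie right of the rest.

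GR regions at the fibrinogen genes ranked high in every library and highest in CORT. Fgg, Fga and Fgb, which encode the chains of fibrinogen, lie side by side on chromosome 3 and had 11 sites between them. In the 7 fibrinogen sites with a peak in every library the median percentile was 95.3 and 88.4 in ctrl. and 95.0 and 93.4 in cal. res., against 99.2 and 99.2 in CORT. The remaining 65 such member sites had medians of 88.7 and 66.7 in ctrl. and 81.1 and 78.7 in cal. res., against 82.8 and 91.1 in CORT. At 6 of the 7 fibrinogen sites both CORT libraries lay above both ctrl. libraries, against 25 of the other 76 member sites with peaks in the 4 libraries compared. The 7 sites are neighbours and not independent observations. The fibrinogen genes were not a planned class, and some of their sites were named because they ranked highest. Their contrast with the other member sites is thus a description and gives no support of its own.

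The site upstream of Fgg, chr3:83002234-83003982, had the highest mean percentile of all member sites. Its fold enrichment was 30.6 and 15.1 in ctrl. and 37.1 and 26.1 in cal. res., against 42.8 and 77.4 in CORT, and its percentiles 98.9 and 97.8, 98.5 and 98.0, and 99.2 and 99.7. It was near the top of every list, and its printed summit window holds the match to the GR element with 2 mismatches. The Fga start site, chr3:83025258-83035737, was at 92.6 and 81.6 in ctrl. and 98.4 and 97.1 in cal. res., against 99.5 and 99.9 in CORT, so that the 3 groups did not overlap. The site at the promoter of Plrg1, a splicing factor gene beside the cluster, lies upstream of the Fgb start. This site, chr3:83055046-83055894, was at 33.0 and 25.3 in ctrl. and 46.7 and 12.7 in cal. res., against 79.7 and 87.2 in CORT. Its mean percentile in CORT was 54.2 above ctrl., the largest difference among the member sites with a peak in every library whose groups did not overlap. With 2 libraries against 2, the two-sided exact permutation test gives p = 0.333 for this and every other site whose groups did not overlap, which is the smallest value the design allows.

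The CORT peaks at these genes were also wide. The widest region at the Fga start measured 594 and 752 bp in ctrl. and 837 and 747 bp in cal. res., against 10143 and 10183 bp in CORT, where 1 region spanned the gene. At Fgb the widest region measured 2027 and 480 bp in ctrl. and 967 and 1059 bp in cal. res., against 12218 and 11832 bp in CORT. At Fgg the widths were 2298 and 647 bp, 812 and 883 bp, and 6329 and 11721 bp. Both CORT libraries exceeded the 4 others at each of the 3 genes. At the C3 start only CORT replicate 2 was wide, with 6878 bp against 978 bp in CORT replicate 1. A site over Mat1a, near Mbl1, had widest regions of 6229 and 11340 bp in CORT and at most 1430 bp in the other libraries. Regions wider than 5000 bp numbered 25 and 11 in the ctrl. lists and 4 and 5 in cal. res., against 31 and 99 in CORT, of which 4 and 8 lay near members in CORT and none in ctrl. or cal. res. Among merged sites, 7 of 339 near members were wider than 5000 bp (2.06%), against 0.253% of all sites. Several of the 7 are neighbours, at the fibrinogen genes and around C3, and are not independent observations. Those at Tnfsf14, near C3, were that wide only in CORT replicate 2 (6167 and 12970 bp, against 2090 and 494 bp in CORT replicate 1). What made these regions wide was not tested.

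**Figure D3:**
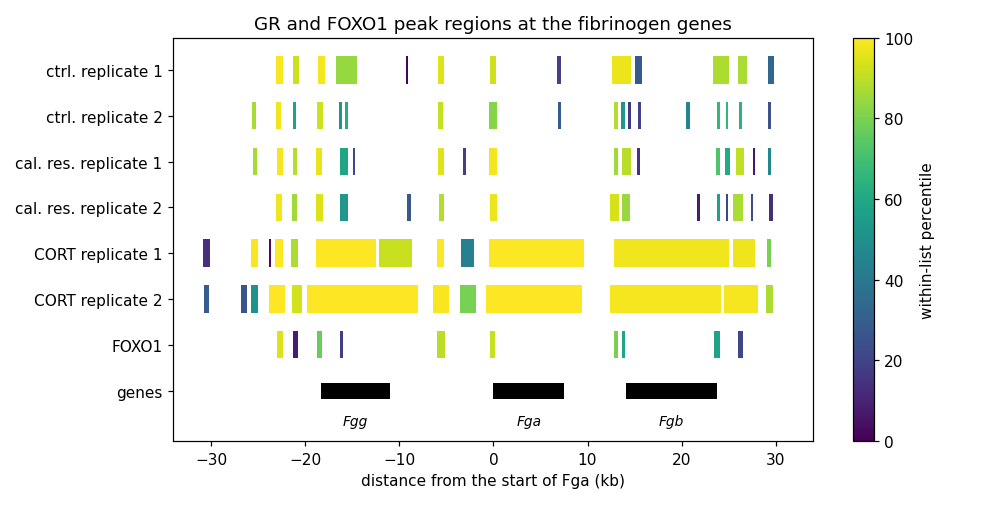
Peak regions around the fibrinogen genes, by distance from the start of Fga in kb, in the 6 GR libraries and the pooled FOXO1 list, coloured by within-list percentile. Black bars are Fgg, Fga and Fgb. In both CORT libraries regions over 5 kb wide cover most of each gene, where the ctrl. and cal. res. libraries have separate narrow regions.

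Across all members, the CORT percentiles lay above those of ctrl. at more sites than below. Of 83 member sites with peaks in the ctrl. and CORT libraries, 31 had both CORT percentiles above both ctrl. percentiles (37.3%, against 27.1% of all such sites), and 1 had them below (1.20%, against 5.73%). The median difference of CORT minus ctrl. was 11.9 percentile points, and 8.23 over all sites. Both ctrl. libraries moved this count. Without ctrl. replicate 1 it was 72 of 91 sites (79.1%, against 70.6%), without ctrl. replicate 2 it was 66 of 149 (44.3%, against 32.0%), and without CORT replicate 1 it was 59 of 86 (68.6%, against 50.1%). The share of member sites was above that of all sites in each case. This was not particular to these genes. Near acute-phase genes, 20 of 44 such sites had CORT above ctrl. and 1 had it below.

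Cal. res. and ctrl. did not separate in this way. Of 74 member sites with peaks in these 4 libraries, 6 had both cal. res. percentiles above ctrl. (8.11%, against 11.4% of all sites) and 11 below (14.9%, against 21.1%). The median difference was 2.63 percentile points, and 0.0420 over all sites. When every list was limited to its 12458 regions of smallest p-value, the size of the shortest list, 15 of 54 member sites had cal. res. above ctrl. (27.8%, against 21.8%), so the position relative to the background changed with list length. Leaving out a library moved it as well. Without ctrl. replicate 1 the count was 47 of 74 (63.5%, against 56.8%), and without ctrl. replicate 2 it was 16 of 105 (15.2%, against 15.7%). Without cal. res. replicate 1 it was 11 of 77 (14.3%, against 15.7%), and without cal. res. replicate 2 it was 22 of 77 (28.6%, against 20.3%). The member share thus lay above that of all sites in 2 of these 4 cases. Named sites with cal. res. above ctrl. were the Proz start, an intronic site of C8a, chr4:104874245-104875450, with 81.3 and 60.3 in ctrl. and 86.5 and 87.4 in cal. res., against 66.0 and 90.7 in CORT, and a site near Cfi at the promoter of Pla2g12a, chr3:129878868-129879775, with 91.3 and 73.7 in ctrl. and 96.6 and 93.2 in cal. res., against 94.3 and 94.9 in CORT. In each, the ctrl. libraries lay further apart than ctrl. replicate 1 did from cal. res.

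Between the 2 treatments, CORT had the higher percentile at most sites that separated. Of 102 member sites with peaks in the cal. res. and CORT libraries, 54 had cal. res. below CORT (52.9%, against 43% of all sites) and 2 above (1.96%, against 9.09%). The median difference was -8.05 percentile points, and -7.50 over all sites. Near acute-phase genes, 33 of 55 such sites had cal. res. below CORT and 2 above. Neither the library name style nor list length can be told apart from the group in this comparison, as both CORT lists were the longer.

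**Figure D4:**
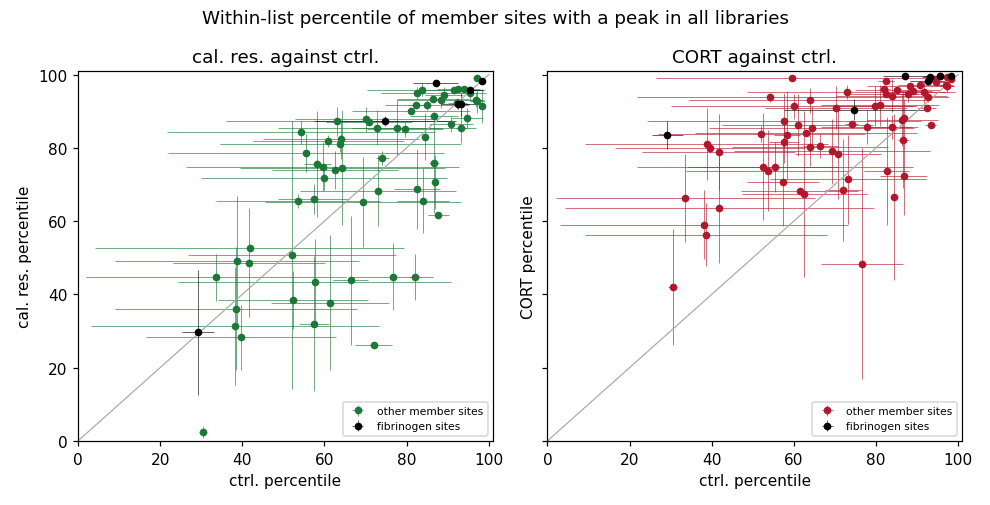
Mean within-list percentile of GR fold enrichment of cal. res. (left) or CORT (right) against ctrl. at the 72 member sites with a peak in all 6 libraries. Lines span the 2 libraries of a group, black points are fibrinogen sites, and the diagonal marks equal percentiles. In the right panel most points lie above the diagonal, and the ctrl. lines are often long.

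Most sites held in CORT with no ctrl. peak ranked in the lower or middle part of the CORT lists. The strongest of the 18 by CORT replicate 2 were the C8a upstream site described above and sites near Cfb at the promoter of C4a, at 44.0 and 81.3 in CORT, in the interval upstream of Fga, at 43.1 and 79.5, and near Hrg, chr16:22914297-22914766, at 66.0 and 77.5. The other 14 had percentiles of at most 46.1 in CORT replicate 1 and 57.3 in CORT replicate 2. They lay near Hc (2 sites), F12, Masp2, F13b, Klkb1, C8b, Hrg, C4b, Pros1, Fgg, Cfb with C2, and Plg (2 sites). None of the 18 overlapped FOXO1, near the share of 4.18% over all GR sites held in CORT with no ctrl. peak. Of the 2 cal. res. sites with no ctrl. peak, the second was upstream of F12, chr13:55429144-55429691, at 55.3 and 13.1 in cal. res., and it also had a peak in CORT replicate 2, at 61.7.

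FOXO1 regions were found at nearly every member gene. The pooled FOXO1 list held 8068 regions, of which 74 lay near members (0.917%). FOXO1 overlapped 66 of the 339 GR sites near members (19.5%, exact 95% interval 15.4% to 24.1%), against 13.9% of all GR sites and 24% of those near acute-phase genes. At least 1 overlapping site lay near 37 of 38 members (97.4%), against 31.2% of protein-coding genes. Such a site also lay near all 18 acute-phase genes and near 18 of the 36 further complement and coagulation genes. Members had a median of 11 GR sites against 3 over protein-coding genes, and the gene shares were not adjusted for this. Of the 74 FOXO1 regions, 1 had no GR site, a share of 1.35% against 6.45% over the list. The GR and FOXO1 summits were a median of 40 bp apart at member sites, and 36 bp over all sites.

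FOXO1 overlap went with the groups that held a site. Of the 72 sites held in all 3 groups, 42 overlapped FOXO1 (58.3%, against 50.7% of all such GR sites). Of the 30 held in cal. res. and CORT and not in ctrl., 13 did (43.3%, against 28.0%), while of the 62 held in CORT alone 2 did (3.23%, against 6.44%). None of the 3 sites held in cal. res. alone overlapped FOXO1, against 18.1% of all such GR sites, and 3 sites are too few to compare. Sites with FOXO1 were also stronger for GR in every library. They had median percentiles of 88.8 and 81.3 in ctrl. and 83.5 and 79.4 in cal. res., against 86.3 and 91.2 in CORT. Member sites without FOXO1 had medians of 42.5 and 31.5, 50.4 and 31.2, and 47.7 and 47.4 in the same order. The same order was seen over all GR sites, so it was not particular to these genes, and overlap and GR strength moved together in these lists.

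**Figure D5:**
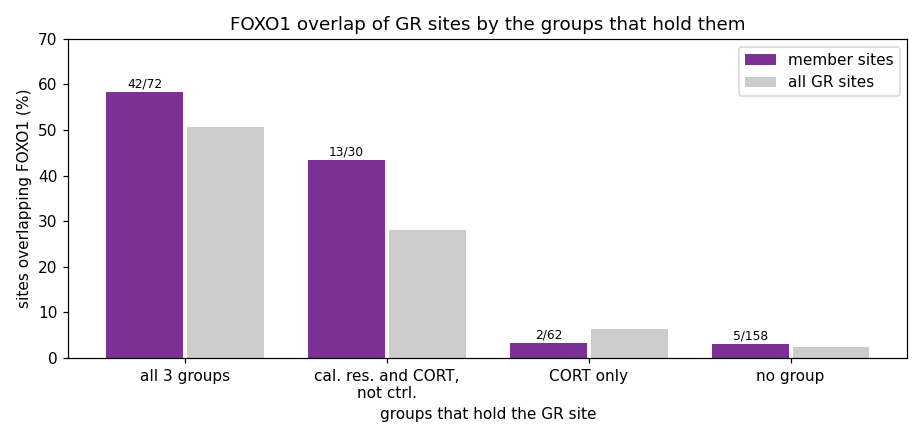
Share of GR sites that overlapped a FOXO1 region (percent), by the groups that held the site, for member sites (purple, with counts) and all GR sites (grey). The share is 58.3% for member sites held in all 3 groups and 3.23% for those held in CORT alone.

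The FOXO1 regions with the highest fold enrichment near members were at the Hrg start, with a percentile of 97.9 in the FOXO1 list, at the Fetub promoter near Hrg (96.9), upstream of Proz (96.0), in an intron of Plg (95.3) and upstream of Fgg (94.8). Hrg encodes histidine-rich glycoprotein, a plasma regulator of clotting and fibrinolysis. At the Hrg start, chr16:22950486-22951660, GR percentiles were only 23.1 and 60.2 in ctrl. and 63.6 and 33.7 in cal. res., against 68.5 and 89.2 in CORT, so the strongest FOXO1 region of the group sat on a GR site of middling rank. The site near Fetub, chr16:22921627-22922960, whose window holds both a GR hexamer and a FOX match, was at 95.3 and 74.8 in ctrl. and 93.1 and 90.3 in cal. res., against 95.9 and 95.8 in CORT. The site upstream of Proz, chr8:13056361-13058857, was at 98.6 and 90.8, 91.0 and 85.4, and 97.2 and 98.7. The Plg site, chr17:12384340-12386100, was at 83.5 and 85.3, 76.6 and 89.6, and 44.0 and 89.2, and its CORT libraries were further apart than those of the other groups. Among these sites, only the window near Fetub held a FOX match. The windows at the Hrg start, upstream of Proz, in the Plg intron and upstream of Fgg held none. The window at the Hrg start held no match to any motif searched.

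Over all member sites, motif content in 200 bp windows under the summits was close to that of GR sites in general. In 200 bp windows, the GR hexamer AGAACA was found at 18.6% of member sites and 18.4% of all sites. The palindromic GR element, the hexamer followed after 3 bases by its reverse complement with at most 2 mismatches, was found at 2.36% and 3.35%, and it contains the hexamer. With 1 mismatch fewer allowed, its share of member sites was 0%. FOX matches were found at 8.55% and 8.72%, STAT matches (TTCNNNGAA) at 10.6% and 8.16%, C/EBP matches at 16.8% and 15.1%, and HNF4 matches at 13.6% and 12.6%. For HNF1, a hepatocyte homeodomain factor searched as GTTAAT and its reverse complement 1 base apart with at most 2 mismatches, the shares were 3.54% and 2.86%, and they were 0.590% and 1.45% in 100 bp windows. Both strands were searched. At the 72 member sites held in all 3 groups, against all GR sites so held, the shares were 29.2% and 20.0% for the hexamer, 2.78% and 5.57% for the palindromic element, and 8.33% and 9.57% for FOX. They were 11.1% and 9.29% for STAT, 23.6% and 17.4% for C/EBP, 19.4% and 15.7% for HNF4, and 9.72% and 3.13% for HNF1. The HNF1 share rests on 7 of the 72 sites. The median GC content of the windows was 48% at member sites and 49% at all sites. A match is a description of the letters and not a measured binding site.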

How the data were processed

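GR and FOXO1 ChIP-seq peak lists of mouse liver were analysed. Samples were grouped by their titles. The study describes alignment to mm10 by BWA, removal of duplicates and of reads with several positions (Picard, Bamtools), paired-end MACS2 peak calls in each GR library, and a bedtools filter against blacklisted regions. No input library is named. Fold enrichment, as deposited, is the ratio of signal at the summit over local background, and was compared only by rank in its own list. Each deposited p-value and q-value is on the -log10 scale. The largest q was 0.0994 to 0.0998 in the deposited GR lists and 9.84e-06 in the FOXO1 list, which therefore differ in stringency. Read depth was not analysed here. Peak number moves with depth. Within-list percentiles were compared, but at sites with a peak in all 6 libraries they rose with list length, so they do not remove it.

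Gene starts came from GENCODE M21 (GRCm38). Regions of the GR lists that overlapped by at least 1 bp were merged into sites. The members, role classes and other lists were chosen with earlier results of these data known. Sites described singly were the strongest by mean percentile (10 in all, and 1 per role class), those held in cal. res. or CORT with no ctrl. peak, up to 3 per direction and comparison with peaks in all 6 libraries and non-overlapping percentiles, and the 5 with the strongest FOXO1 region. Start sites, the fibrinogen genes as a set and C8b were described in addition, C8b after its values were seen. The fibrinogen set was not planned, and some of its sites had been picked by their percentile. Counts were set beside those over all sites with no test. Single differences were tested by exact permutation over libraries. Exact binomial (Clopper-Pearson) 95% intervals cover counting error only. Site calls and percentiles were checked on simulated data. Alternatives were other windows, nearest genes, thresholds, list lengths, overlap rules, ranks, pairings and leaving out each library. The tools were pandas 2.3.3, NumPy 2.4.6, pysam 0.24.0, SciPy 1.17.1 and matplotlib 3.10.9 under Python 3.11.15.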

Additional observations from a re-analysis of the deposited data

How the results depend on the processing

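With 2 libraries per group and no read totals, numbers of sites follow the length of each list, and ctrl. replicate 2 limits what ctrl. can hold. Shares of member sites are set against those of all GR sites. The count of member sites held in cal. res. and not in ctrl. (33) was 18 with a 10 kb window (11.8%, against 11.5%), 61 with a 100 kb window (12.5%, against 11.5%), 20 with an equal number of regions per list (12.9%, against 16.0%) and 8 when either library sufficed (2.36%, against 5.55%), and leaving out 1 library gave 2 (without ctrl. replicate 2) to 57 (without cal. res. replicate 2). The count held in CORT and not in ctrl. (92) was 42 with 10 kb (27.5%, against 24.3%), 46 when the nearest gene start had to be a member (23%, against 24.3%) and 36 with equal lists (23.2%, against 15.2%), and leaving out 1 library gave 26 (without ctrl. replicate 2) to 199 (without CORT replicate 1).

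The share overlapping FOXO1 (19.5%) was 25.5% with 10 kb, 32% with q of at most 1e-05, 39.4% with equal lists, 33.2% with a fold enrichment of at least 5 and 12.7% with the stronger 50% of FOXO1 regions, and 19.5% to 25% without 1 library. The share over all GR sites was 13.9%, 22.6%, 29.6%, 23.4% and 7.15% under these 5 settings. The count with cal. res. above ctrl. (6) was 10 with 100 kb (10%, against 11.4%) and 15 with equal lists (27.8%, against 21.8%), and 6 to 47 without 1 library (47 without ctrl. replicate 1, 16 without ctrl. replicate 2, 11 and 22 without cal. res. replicates 1 and 2). The count with CORT above ctrl. (31) was 16 with 10 kb and also with the nearest gene (33.3% in both, against 27.1%), 20 with q of at most 1e-05 (45.5%, against 27.1%) and also with a fold of at least 5 (47.6%, against 26.7%), and 31 to 72 without 1 library (72 without ctrl. replicate 1, 66 without ctrl. replicate 2, 59 without CORT replicate 1). Within 1 library name style, the counts were 47 of 74 for cal. res. (63.5%, against 56.8%) and 66 of 149 for CORT (44.3%, against 32.0%). The causes of these changes were not tested, apart from the smaller or larger number of sites that each setting compares.

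The labels give the groups the same replicate numbers but no shared animal or batch, and with 2 pairs the numbers were not taken as paired. The deviations of same-numbered libraries over 8097 sites correlated at -0.047 between cal. res. and ctrl. and at -0.13 between CORT and ctrl. With the replicate number as a replicate block, 2 sites were held in cal. res. and not in ctrl. (0.590%, against 0.842%), 18 in CORT and not in ctrl. (5.31%, against 4.28%), 14 had cal. res. above ctrl. (18.9%, against 17.7%) and 32 had CORT above ctrl. (38.6%, against 33.7%). With the numbers crossed, chosen after seeing the data, CORT was above ctrl. at 53 of 83 sites (63.9%, against 43.9%). For the 15 named differences, the smallest p of the exact sign-flip permutation over pairs was 0.5, the smallest value that 2 pairs allow. The direction was kept in all 97 alternatives that gave a value, while 8 gave none because a peak was lost. These differences were chosen for groups that did not overlap, so leaving out a library or blocking by replicate could not reverse them. Only ranking by p-value and equal lists could have, so the count of 97 gives no support of its own. Motif shares fell outside their intervals in 8 of 10 alternatives, which used a shorter window or 1 mismatch fewer.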
